A study of Mus musculus with 10 samples.

Results

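The genes described here are 36 genes of de novo lipogenesis and triglyceride synthesis, measured by RNA-Seq in brown adipose tissue (BAT) of control mice and of mice without STAT5 in adipocytes. They were listed by gene symbol and joined to the count tables by Entrez gene identifier, with 11 genes of fatty acid synthesis, 9 of desaturation and elongation and 16 of esterification. All 36 passed the filter on low counts, among the 13568 genes tested of 24454 counted. BAT was taken from 5 control and 5 *Stat5* Adipoq mice, all male, on the C57BL/6N strain, 2 months old and fed ad libitum, and 1 library of 50-base single reads was made per mouse. *Stat5* Adipoq mice lack Stat5a and Stat5b where Adipoq-Cre is active, which is in brown and in white adipocytes and not in the other cells of the tissue. According to the methods the controls were littermates with floxed Stat5 alleles and no Cre transgene, although they are labelled wild type. Gene counts added up to 8488129 to 19514904 per control library and 9401827 to 15686868 per *Stat5* Adipoq library, and levels are given as CPM, gene counts scaled to a common library size with TMM factors.

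De novo lipogenesis starts from citrate that leaves the mitochondria and is cleaved to acetyl-CoA in the cytosol. Acetyl-CoA carboxylase makes malonyl-CoA from it, fatty acid synthase builds palmitate with NADPH as reductant, and elongases and desaturases turn palmitate into longer and unsaturated fatty acids. Acyl chains are then attached to glycerol 3-phosphate step by step until triglyceride enters the lipid droplet. Brown adipocytes both make and burn fatty acids, and malonyl-CoA restrains the entry of fatty acids into mitochondria.

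Stat5a and Stat5b, the deleted genes, were examined first. Stat5a measured 109.8, 130.4, 92.6, 86.9 and 107 CPM in control replicates 1 to 5 and 20.7, 15.8, 16.2, 16.6 and 16.1 CPM in *Stat5* Adipoq replicates 1 to 5. Stat5b measured 82.0, 84.8, 83.7, 76.6 and 91.9 CPM in control replicates 1 to 5 and 21.0, 22.0, 21.4, 22.9 and 21.5 CPM in *Stat5* Adipoq replicates 1 to 5. Both fell in *Stat5* Adipoq BAT, by log2 fold changes of -2.62 (SE 0.12, adjusted p = 2.0e-07) and -1.94 (SE 0.06, adjusted p = 3.9e-09) in edgeR's quasi-likelihood test, and no *Stat5* Adipoq library reached the lowest control. Reads of both genes remained in each *Stat5* Adipoq library. The tissue was sequenced in bulk, so fewer cells of a type and less RNA per cell cannot be told apart for these or any other genes below.

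The label of the tissue was checked with 10 markers of brown adipocytes, all of which were tested and none of which was at 0 in any library. Their summed level was 13900 ± 3586 CPM for the controls against 15300 ± 2381 CPM for *Stat5* Adipoq mice (SD, n = 5 each), with Ucp1 as the most abundant gene. Ucp1 measured 8245, 7429, 13831, 10111 and 5402 CPM in control replicates 1 to 5 and 8234, 7843, 11866, 12498 and 12661 CPM in *Stat5* Adipoq replicates 1 to 5, and the genotypes overlapped. The log2 fold changes of the 10 ran from -1.07 to 0.33 (median 0.22), and 8 were above 0. Of the 10 markers, 3 had an unadjusted p under 0.05, where 15.2% of all genes had one in either direction. The 3 were Cidea, lower (log2 fold change -0.20), and Ppara (0.27) and Cox7a1, higher. Of these Cox7a1 passed the threshold, where 1.40% of all genes were called higher, with a log2 fold change of 0.29 (adjusted p = 0.040 in edgeR's quasi-likelihood test). By the same test Cox7a1 lost its call without control replicate 1 (adjusted p = 0.099), 2 (0.091), 4 (0.082) or 5 (0.079) or without *Stat5* Adipoq replicate 3 (0.10), 4 (0.11) or 5 (0.10). The 6 markers shared by brown and white adipocytes summed to 13820 ± 731 CPM for the controls against 12890 ± 688 CPM for *Stat5* Adipoq mice (SD, n = 5 each), and none of them passed edgeR's test or DESeq2's, with 1 under an unadjusted p of 0.05.

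Some libraries stood apart from the others. Control replicate 3 had 3523 CPM of 8 skeletal muscle genes, led by Myh4, against 2.18 to 284 CPM in the other 9 libraries. It also had the most Ucp1, and 38.7 CPM of the liver gene Alb, against 0.0923 to 1.60 CPM in the other libraries, of which *Stat5* Adipoq replicate 2 had the most. Control replicate 4 was sequenced to 19514904 counts, against 8488129 to 10936218 in the other controls. Control replicate 3 was the highest of the 10 libraries for 11 of the 36 lipogenic genes, 8 of them among the 16 genes of esterification. *Stat5* Adipoq replicate 1 was the lowest of the 10 for 12 of the 36, and 7 of these were among the 11 genes of fatty acid synthesis. Control replicate 5 was the highest for 9 and the lowest for 7, with 6 of those 7 in esterification, and it had the least Ucp1. The part of muscle, liver or depth in the values below was not tested, but libraries without which a call or a direction changes are named beside the genes concerned.

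The 36 genes took a large share of the RNA. Together they made up 15.2% to 18.4% of the counts in control libraries and 15.9% to 18.6% in *Stat5* Adipoq libraries, ranges that overlapped almost completely. Scd1 alone took 4.23% to 7.52% in control and 5.90% to 8.63% in *Stat5* Adipoq libraries, and Fasn took 4.70% to 6.03% and 4.37% to 5.99%. Compared per kilobase of the longest transcript, the mean level in control BAT was over 1000 CPM per kb for 6 of the 36 genes and under 10 for 9. Scd1 stood first at 12710 ± 2499 CPM per kb (SD, n = 5), and its lowest control library, at 8935 CPM per kb, lay above the highest of any other member. Fasn, at 5309 ± 506 CPM per kb, and Gpd1, at 5178 ± 1140 CPM per kb (SD, n = 5 each), overlapped in range, and their means stood in the other order per kb of merged exons (4874 for Fasn and 5003 for Gpd1). Thrsp followed at 3000 ± 144 CPM per kb, then Acly (2006 ± 259) and Agpat2 (1846 ± 221), which overlapped each other (SD, n = 5 each). Dgat2 came next at 888 ± 106 CPM per kb, clear of its neighbours on both sides. Among the lowest were Agpat5 at 1.95 ± 0.244, Agpat4 at 1.27 ± 0.302 and Elovl7 at 0.138 ± 0.117 CPM per kb (SD, n = 5 each). In *Stat5* Adipoq BAT the first place stayed with Scd1 at 15570 ± 2410 CPM per kb (SD, n = 5).

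Between the genotypes 4 of the 36 genes passed the threshold in edgeR's quasi-likelihood test and all 4 were lower in *Stat5* Adipoq BAT, namely Acacb, Me1, Fads1 and Elovl5. Over all 13568 genes the same test called 178 lower (1.31%) and 190 higher (1.40%). Of the 36, 12 had an unadjusted p under 0.05, 10 lower and 2 higher, where 15.2% of all genes had one in either direction. The genotypes did not overlap for 5 of the 36, each with its *Stat5* Adipoq libraries lower, the 4 above and Fads2, against 2.04% of all genes, and for none were the *Stat5* Adipoq libraries all higher, against 2.35%. DESeq2's Wald test called those same 5 lower and none higher, where it called 2.46% of all genes lower and 2.40% higher. The median log2 fold change was -0.12 over the 36 genes and -0.0028 over all genes, and 22 of the 36 were below 0. By step, 2 of the 11 genes of fatty acid synthesis were lower (median log2 fold change -0.14), 2 of the 9 of desaturation and elongation (median -0.25) and 0 of the 16 of esterification (median 0.012). For those 16, 4 had an unadjusted p under 0.05 and DESeq2 called none. When single libraries were left out, 2 to 6 of the 36 were called, with 2 called when control replicate 1 or 2 was missing or when *Stat5* Adipoq replicate 2, 3 or 5 was, and 6 without control replicate 3. Over all genes, edgeR's total of 368 calls dropped to 221, 213 and 218 without control replicates 1, 2 and 4 and to 185, 192 and 188 without *Stat5* Adipoq replicates 3, 4 and 5.

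**Figure D1:**
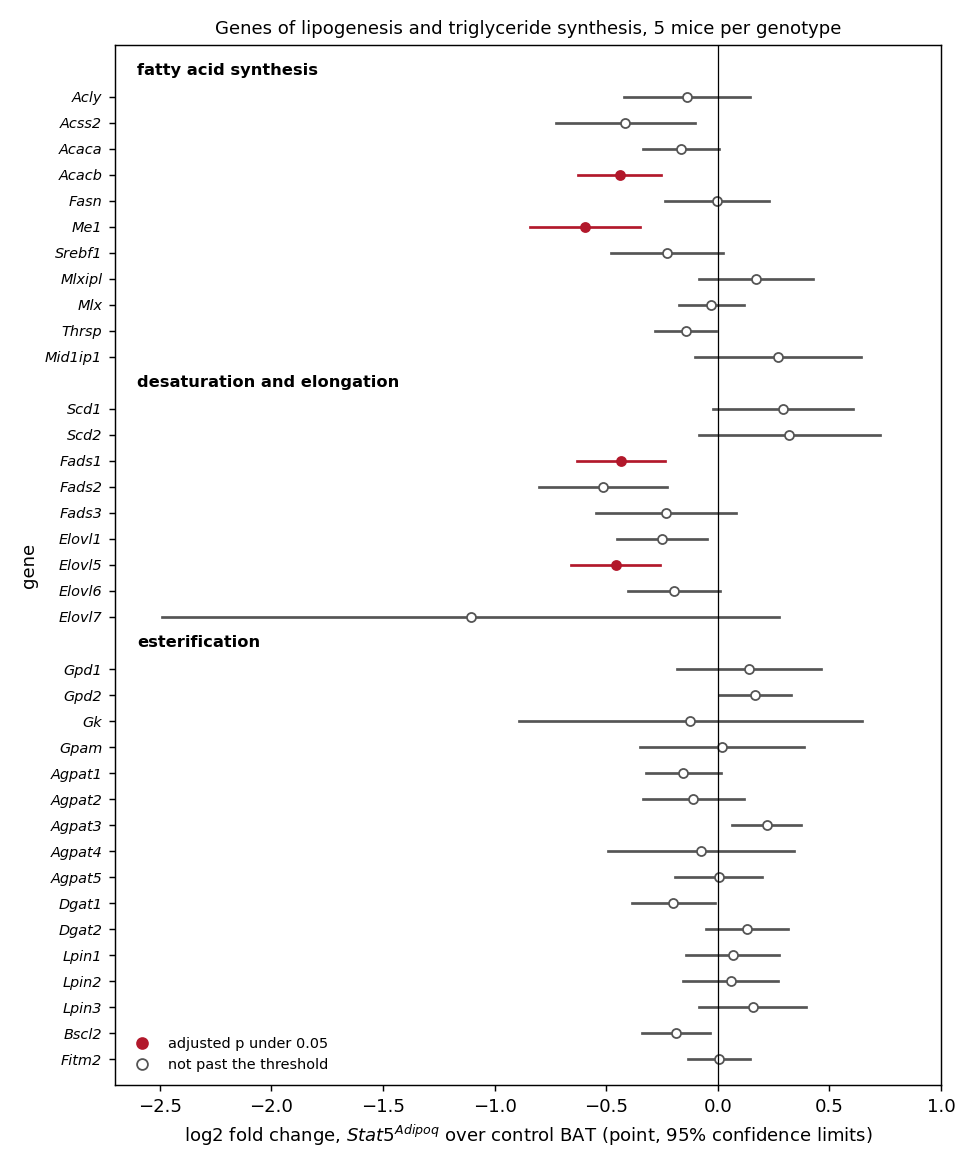
Log2 fold change of each of the 36 genes in *Stat5* Adipoq over control BAT (horizontal axis, points) with 95% confidence limits (lines), from edgeR's quasi-likelihood fit with 5 mice per genotype, grouped by step. The 4 filled points, Acacb, Me1, Fads1 and Elovl5, lie between -0.60 and -0.43, and the genes of esterification lie between -0.20 and 0.22.

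Acacb encodes the acetyl-CoA carboxylase of the outer mitochondrial membrane, whose malonyl-CoA limits fatty acid oxidation. It measured 3573, 3788, 3826, 3877 and 3779 CPM in control replicates 1 to 5 and 2345, 2576, 2592, 3267 and 3109 CPM in *Stat5* Adipoq replicates 1 to 5. The controls were close together, with a coefficient of variation of 3.08% against 14.1% in *Stat5* Adipoq BAT, and each *Stat5* Adipoq library lay below each control. Acacb fell to 0.737 times the control level, a log2 fold change of -0.44 (SE 0.09, adjusted p = 0.019 in edgeR's quasi-likelihood test; exact two-sided permutation test, p = 0.0079, the smallest that 5 against 5 allow). Groups of 5 without overlap always give this permutation p, so here and for the genes below it restates the separation. Without *Stat5* Adipoq replicate 3 the adjusted p of Acacb was 0.062, and Acacb stayed called when any other single library was left out. Acaca, which encodes the cytosolic carboxylase that feeds fatty acid synthase, ranged from 2350 to 2619 CPM in control and from 1850 to 2502 CPM in *Stat5* Adipoq BAT. Its log2 fold change of -0.16 had limits of -0.33 and 0.01 (adjusted p = 0.35 in edgeR's quasi-likelihood test). The level of Acacb per kb over that of Acaca was 1.54, 1.61, 1.68, 1.79 and 1.56 in control replicates 1 to 5 and 1.37, 1.30, 1.27, 1.41 and 1.37 in *Stat5* Adipoq replicates 1 to 5. These ratios did not overlap between the genotypes, and the difference between the 2 carboxylases was not tested. Of the 50-base words of the longest Acaca transcript, 52.6% also occur in the transcript of the pseudogene Gm5182, so the level of Acaca is uncertain.

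Me1, the cytosolic malic enzyme that turns malate into pyruvate and yields NADPH, had the largest fall among the 4. It measured 772, 913, 1039.5, 961 and 1009 CPM in control replicates 1 to 5 and 493, 553, 623, 737 and 703 CPM in *Stat5* Adipoq replicates 1 to 5. The highest *Stat5* Adipoq value, in replicate 4, stayed under the lowest control value, in replicate 1. Me1 fell to 0.662 times the control level, with a log2 fold change of -0.60 (SE 0.11, adjusted p = 0.016 in edgeR's quasi-likelihood test; exact two-sided permutation test, p = 0.0079), and it stayed called in each of the 10 fits that left out 1 library. Pseudogenes share 26.5% of its 50-base words, which makes its level less certain. Relative to Acly, the ATP citrate lyase that frees acetyl-CoA from citrate, the Me1 level per kb was 0.127 to 0.168 in control and 0.0950 to 0.116 in *Stat5* Adipoq libraries, without overlap. Acly itself ranged from 7713 to 10694 CPM in control and from 5724 to 9959 CPM in *Stat5* Adipoq BAT, at a log2 fold change of -0.14 and limits of -0.42 and 0.15 (adjusted p = 0.70 in edgeR's quasi-likelihood test).

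Fasn, fatty acid synthase itself, measured 50625, 59822, 54487, 46383 and 55450 CPM in control replicates 1 to 5 and 42747, 53119, 47672, 62073 and 60836 CPM in *Stat5* Adipoq replicates 1 to 5. The genotypes overlapped over almost their whole ranges, with the lowest value in *Stat5* Adipoq replicate 1 and the highest in *Stat5* Adipoq replicate 4. The mean in *Stat5* Adipoq BAT was 0.999 times that of control, and the log2 limits were -0.23 and 0.23 (adjusted p = 0.996 in edgeR's quasi-likelihood test). The sign of so small a difference changed with 1 surrogate variable (log2 fold change 0.012) and when control replicates 2 (0.043), 3 (0.0055) and 5 (0.013) and *Stat5* Adipoq replicates 1 (0.071) and 3 (0.036) were each left out. Acss2, the cytosolic acetyl-CoA synthetase that makes acetyl-CoA from acetate, measured 909.5, 1119, 788, 855 and 1303 CPM in control replicates 1 to 5 and 674, 938, 677, 799 and 647 CPM in *Stat5* Adipoq replicates 1 to 5. *Stat5* Adipoq replicates 1, 3 and 5 lay below all controls, while replicates 2 and 4 lay among them. Its log2 fold change of -0.41 (SE 0.14) had limits below 0 but an adjusted p of 0.17 in edgeR's quasi-likelihood test. Of the exon bases of Acss2, 9.12% are also covered by exons of antisense genes.

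A list of 10 genes that supply precursors and NADPH to this step, none of them among the 36, was read next. Like the other pathway lists, it was chosen with earlier results of these data known. In edgeR's test 3 of the 10 were lower and none higher, where 1.31% of all genes were lower. Over all pathway lists together, 3 of 85 tested genes were lower and 1 was higher. Slc25a1, the carrier that exports citrate from mitochondria, measured 1136, 1224, 1109, 1073 and 1318 CPM in control replicates 1 to 5 and 653, 790.4, 831, 1027 and 896 CPM in *Stat5* Adipoq replicates 1 to 5. Pc (Pcx in the gene table), the pyruvate carboxylase that makes oxaloacetate, measured 1683, 1642, 1444, 1459.9 and 1660.5 CPM in control replicates 1 to 5 and 1286, 1179, 1057, 1164 and 1066 CPM in *Stat5* Adipoq replicates 1 to 5. Mdh1, the cytosolic malate dehydrogenase that makes the malate used by malic enzyme, measured 1302, 1286, 1625, 1276 and 1261 CPM in control replicates 1 to 5 and 1110.1, 1140.4, 1011, 1069 and 1089.8 CPM in *Stat5* Adipoq replicates 1 to 5. For each of the 3 genes the genotypes did not overlap, with the *Stat5* Adipoq libraries lower, as for 2.04% of all genes. The log2 fold changes were -0.48 for Slc25a1 (SE 0.11, adjusted p = 0.031), -0.46 for Pc (SE 0.07, adjusted p = 0.0055) and -0.32 for Mdh1 (SE 0.07, adjusted p = 0.042) in edgeR's quasi-likelihood test. The call of Pc held whichever library was left out. That of Slc25a1 was lost without control replicate 1 (adjusted p = 0.061), 2 (0.078) or 5 (0.064) or without *Stat5* Adipoq replicate 2 (0.073), 3 (0.087) or 5 (0.067), by the same test. Mdh1 lost its call without control replicate 1 (adjusted p = 0.077), 2 (0.073) or 4 (0.065) or without any 1 of the *Stat5* Adipoq replicates 1 to 5 (0.067, 0.063, 0.12, 0.10 and 0.099), by the same test. With 1 surrogate variable in edgeR's fit the adjusted p was 0.052 for Slc25a1 and 0.087 for Mdh1. The other 7, Cs, Idh1 and the genes G6pdx, Pgls, Pgd, Taldo1 and Tkt of the pentose phosphate pathway, did not pass, and their log2 fold changes lay between -0.15 for Pgls and 0.11 for Pgd.

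Srebf1, which encodes the transcription factor SREBP-1, measured 497, 639, 423, 399 and 555 CPM in control replicates 1 to 5 and 418, 393, 471, 448 and 414 CPM in *Stat5* Adipoq replicates 1 to 5. The control values were spread more widely than the *Stat5* Adipoq values, with coefficients of variation of 19.5% and 7.12%, and the *Stat5* Adipoq range lay within that of the controls except for replicate 2. The difference was -0.23 in log2 fold change, limits -0.48 and 0.02 (adjusted p = 0.38 in edgeR's quasi-likelihood test). Mlxipl, which encodes the carbohydrate response factor ChREBP, measured 610.4, 672, 596, 658 and 737 CPM in control replicates 1 to 5 and 524, 708, 883, 816 and 757 CPM in *Stat5* Adipoq replicates 1 to 5. Both the lowest and the highest value were in *Stat5* Adipoq BAT, in replicates 1 and 3, and the log2 fold change of 0.17 had limits of -0.08 and 0.43 (adjusted p = 0.55 in edgeR's quasi-likelihood test). Thrsp, the abundant lipogenic protein Spot 14, measured 4094, 4249.9, 3991, 4148 and 4518 CPM in control replicates 1 to 5 and 3366, 3710.1, 4087, 3996 and 3843 CPM in *Stat5* Adipoq replicates 1 to 5. *Stat5* Adipoq replicates 3 and 4 reached the control range, and the other *Stat5* Adipoq libraries lay below it. The log2 fold change of Thrsp was -0.14 (SE 0.06) with limits of -0.28 and -0.01 and an adjusted p of 0.30 in edgeR's quasi-likelihood test. Mlx, the partner of ChREBP, and Mid1ip1, a relative of Thrsp, had log2 fold changes of -0.03 (limits -0.18 and 0.12) and 0.27 (limits -0.10 and 0.64), and neither passed. Mlx ranged from 38.6 to 47.3 CPM in control and from 40.0 to 46.3 CPM in *Stat5* Adipoq BAT, and Mid1ip1 ranged from 41.9 to 70.9 CPM in control and from 54.8 to 94.7 CPM in *Stat5* Adipoq BAT. Opposite-strand exons cover 19.3% of the exon bases of Mlx and 25.5% of those of Mid1ip1.

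Other genes that control lipogenic transcription, such as Srebf2, Scap, Insig1 and the liver X receptor genes Nr1h2 and Nr1h3, were listed too. None of these 17 genes passed edgeR's quasi-likelihood test or DESeq2's test. An unadjusted p under 0.05 was found for 2, Mlxip (log2 fold change -0.21) and Pparg (0.19), against 15.2% of all genes. None of the 10 tested genes for AMP-activated protein kinase and its upstream kinase passed either, with 0 under an unadjusted p of 0.05 and none called by DESeq2. Of 13 further targets of SREBP or ChREBP 10 were tested and none passed edgeR's test, with 2 under an unadjusted p of 0.05. These 2 were Aacs (log2 fold change -0.29, adjusted p = 0.28 in edgeR's test) and Sqle, the squalene epoxidase of cholesterol synthesis (-0.39, adjusted p = 0.072). DESeq2 called Sqle alone, where it called 2.46% of all genes lower.

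**Figure D2:**
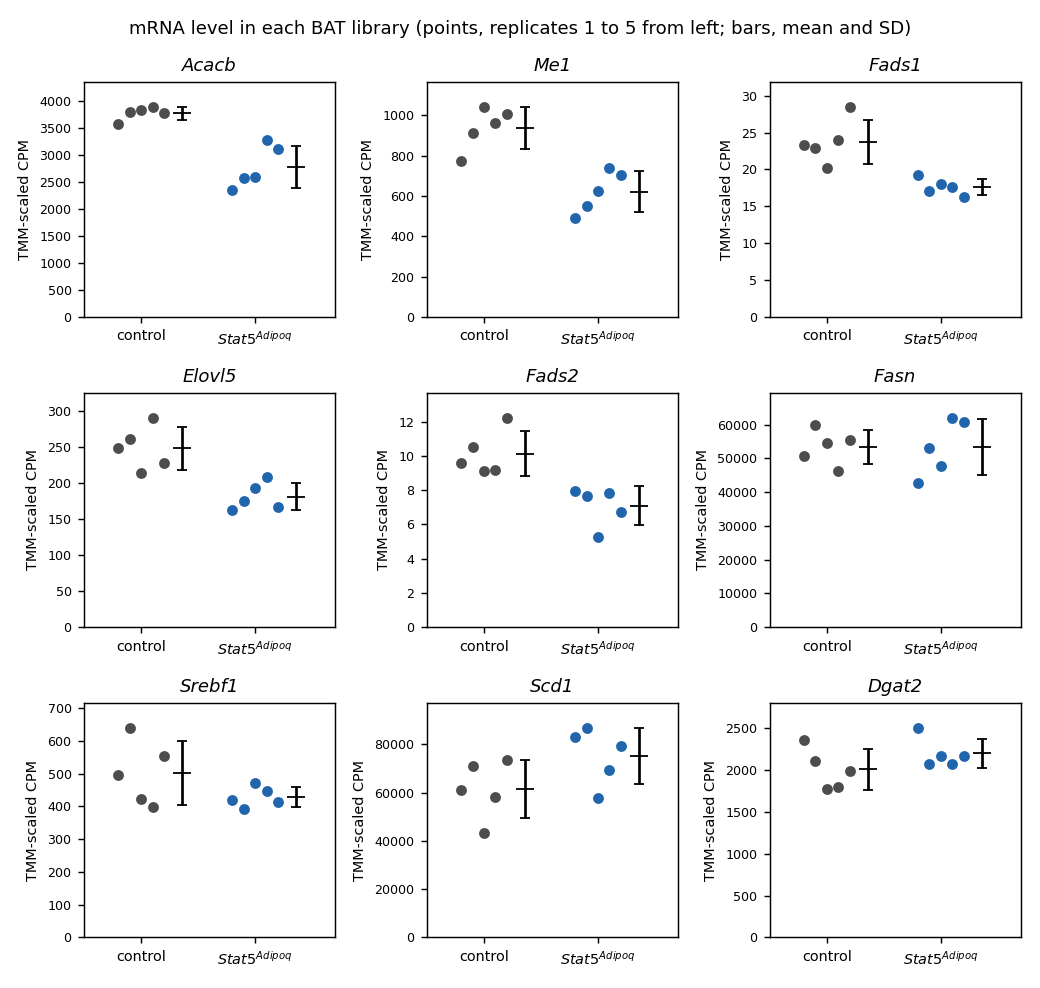
Level of 9 of the 36 genes in CPM (vertical axis, from 0) in each control and *Stat5* Adipoq library (points) with the mean and SD of 5 mice per genotype (bars). For Acacb, Me1, Fads1, Elovl5 and Fads2 each *Stat5* Adipoq library lies below each control, while the genotypes overlap for Fasn, Srebf1, Scd1 and Dgat2.

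Among the desaturases, Scd1, the stearoyl-CoA desaturase that makes oleate and palmitoleate, measured 61028, 71037, 43172, 58316 and 73577 CPM in control replicates 1 to 5 and 82916, 86797, 57940, 69306 and 79184 CPM in *Stat5* Adipoq replicates 1 to 5. Control replicate 3 was the lowest of the 10 libraries and *Stat5* Adipoq replicate 2 the highest, and the genotypes overlapped. Its log2 fold change of 0.29 (SE 0.14) had limits of -0.02 and 0.61 and an adjusted p of 0.37 in edgeR's quasi-likelihood test. Scd2, which lies 87.6 kb away on chromosome 19, differed by a log2 fold change of 0.32, between limits of -0.09 and 0.73 (adjusted p = 0.46 in the same test). Scd2 ranged from 605 to 1210.1 CPM in control and from 823 to 1236 CPM in *Stat5* Adipoq BAT. Per kb the Scd1 level was 68.6 to 104 times that of Scd2 in control and 56.8 to 114 times in *Stat5* Adipoq libraries. The 2 genes share 50-base words with each other, Scd3 and Scd4, 4.66% of those of Scd1 and 4.01% of those of Scd2.

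Fads1 and Fads2 encode the Δ5 and Δ6 desaturases that act on polyunsaturated fatty acids from the diet. Both were low in BAT, at 6.86 ± 0.860 and 3.22 ± 0.413 CPM per kb in control (SD, n = 5). Fads1 measured 23.3, 22.9, 20.2, 24.0 and 28.4 CPM in control replicates 1 to 5 and 19.2, 17.1, 18.0, 17.6 and 16.3 CPM in *Stat5* Adipoq replicates 1 to 5. Control replicate 5 was the highest and the *Stat5* Adipoq libraries were tight, all below the lowest control, replicate 3. Fads1 fell to 0.741 times the control level, a log2 fold change of -0.43 (SE 0.09, adjusted p = 0.027 in edgeR's quasi-likelihood test; exact two-sided permutation test, p = 0.0079). That call was close to the threshold. It held when control replicate 3 or 5 was left out, or *Stat5* Adipoq replicate 1, and was lost without control replicate 1 (adjusted p = 0.057), 2 (0.055) or 4 (0.064) or without *Stat5* Adipoq replicate 2 (0.063), 3 (0.067), 4 (0.067) or 5 (0.079) in edgeR's quasi-likelihood test. Fads2 measured 9.57, 10.5, 9.14, 9.20 and 12.2 CPM in control replicates 1 to 5 and 7.96, 7.69, 5.26, 7.82 and 6.71 CPM in *Stat5* Adipoq replicates 1 to 5. Each *Stat5* Adipoq library lay below each control here as well, which fixes the p of the exact two-sided permutation test at 0.0079. The log2 fold change was -0.51 (SE 0.13). Fads2 had 104 counts per library on average, and its adjusted p of 0.063 in edgeR's quasi-likelihood test missed the threshold, which DESeq2's Wald test passed at 0.017. Fads3, a relative in the same cluster, overlapped between the genotypes at a log2 fold change of -0.23 and limits of -0.55 and 0.08 (adjusted p = 0.49 in edgeR's quasi-likelihood test). Fads3 levels ran from 17.6 to 28.7 CPM in control and from 15.3 to 22.9 CPM in *Stat5* Adipoq BAT.

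Elovl5, an elongase of polyunsaturated fatty acids that works between the Δ6 and Δ5 desaturation steps, measured 249, 261, 214, 291 and 228 CPM in control replicates 1 to 5 and 163, 175, 193, 208 and 167 CPM in *Stat5* Adipoq replicates 1 to 5. The highest *Stat5* Adipoq library, replicate 4, came close to the lowest control, replicate 3, without reaching it. Elovl5 fell to 0.728 times the control level, with a log2 fold change of -0.46 (SE 0.09, adjusted p = 0.023 in edgeR's quasi-likelihood test; exact two-sided permutation test, p = 0.0079). Its call was lost without control replicate 1 (adjusted p = 0.051) or 2 (0.059) or without *Stat5* Adipoq replicate 2 (0.053) or 5 (0.070) in edgeR's quasi-likelihood test. Elovl1, an elongase of very long saturated chains, measured 13.6, 14.1, 13.3, 15.5 and 12.8 CPM in control replicates 1 to 5 and 10.1, 11.5, 13.1, 11.2 and 12.5 CPM in *Stat5* Adipoq replicates 1 to 5. *Stat5* Adipoq replicate 3 overlapped the controls, and the log2 fold change of -0.25 (SE 0.09) had an adjusted p of 0.21 in edgeR's quasi-likelihood test. Elovl6, which extends palmitate to stearate and was the most abundant of the 4 elongase genes per kb, ranged from 2005 to 2578 CPM in control and from 1639 to 2216 CPM in *Stat5* Adipoq BAT (log2 fold change -0.20, limits -0.40 and 0.01). The Elovl5 level per kb over that of Elovl6 was 0.177 to 0.309 in control and 0.161 to 0.238 in *Stat5* Adipoq libraries, which overlap. Elovl7 ranged from 0.191 to 1.36 CPM in control and from 0.0799 to 0.661 CPM in *Stat5* Adipoq BAT. It had 5.7 counts per library on average, and with limits of -2.49 and 0.27 a difference was hardly measurable at this depth.

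Among 15 other genes of desaturation and elongation 14 were tested and 1 passed, where 1.40% of all genes were called higher. This was Elovl4, which encodes an elongase of very long polyunsaturated chains and was higher in *Stat5* Adipoq BAT. Elovl4 measured 0.766, 0.635, 0.601, 1.06 and 0.731 CPM in control replicates 1 to 5 and 1.76, 2.31, 3.32, 3.64 and 2.40 CPM in *Stat5* Adipoq replicates 1 to 5. Each *Stat5* Adipoq library lay above each control, as for 2.35% of all genes, although the counts behind these values were small. The log2 fold change was 1.75 (SE 0.26, adjusted p = 0.0044 in edgeR's quasi-likelihood test), and the call held whichever library was left out.

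**Figure D3:**
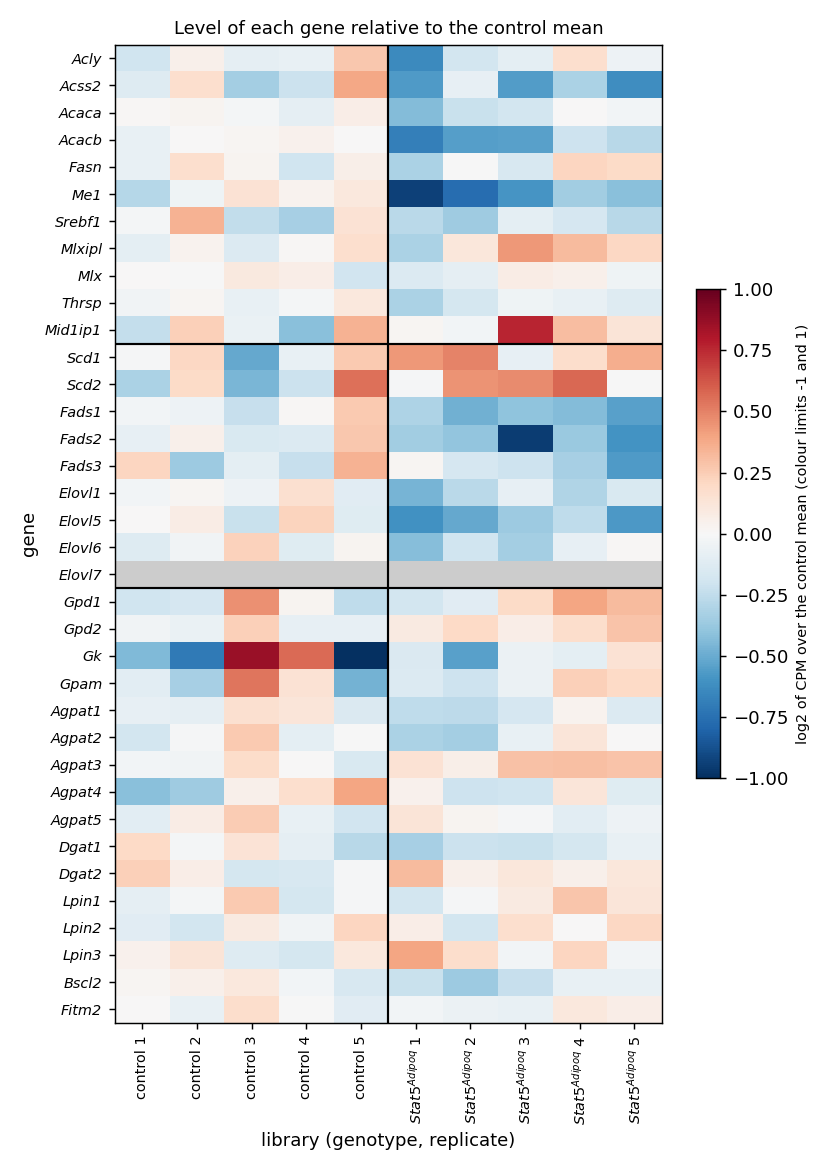
Level of each gene (top to bottom) in each of the 10 libraries (left to right) as log2 of CPM over the control mean, with colour limits at -1 and 1 and Elovl7 left grey because of its low counts. Blue fills all 5 *Stat5* Adipoq columns for Acacb, Me1, Fads1, Fads2 and Elovl5 and also, though the genotypes overlap, for Acss2, Srebf1, Thrsp, Elovl1, Dgat1 and Bscl2, while control replicate 3 is red and control replicate 5 blue for Gpd1, Gk and Gpam.

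The backbone of triglyceride is glycerol 3-phosphate. Gpd2, the mitochondrial glycerol 3-phosphate dehydrogenase that consumes this substrate, measured 2071, 2034, 2513, 2002 and 2004 CPM in control replicates 1 to 5 and 2257, 2444, 2231, 2401 and 2591 CPM in *Stat5* Adipoq replicates 1 to 5. Control replicate 3 lay among the *Stat5* Adipoq libraries and far above the other 4 controls, which were all below the *Stat5* Adipoq range. The log2 fold change was 0.17 (SE 0.07, adjusted p = 0.31 in edgeR's quasi-likelihood test), and without control replicate 3 it was 0.23 with an adjusted p of 0.042, which passes. Gpd1, the cytosolic enzyme that makes glycerol 3-phosphate from dihydroxyacetone phosphate, was more abundant per kb in control BAT, at 5178 ± 1140 against 369 ± 38.0 CPM per kb for Gpd2 (SD, n = 5 each). Gpd1 ranged from 12430 to 20351 CPM in control and from 13040 to 19431 CPM in *Stat5* Adipoq BAT (log2 fold change 0.14, limits -0.18 and 0.46). Gk, glycerol kinase, was picked out after its values were seen because it varied most among the well counted genes of the 36. It measured 224, 186, 552, 450.3 and 107 CPM in control replicates 1 to 5 and 275, 209, 291, 284 and 335 CPM in *Stat5* Adipoq replicates 1 to 5. The coefficient of variation was 62.0% in control and 16.3% in *Stat5* Adipoq BAT, and all *Stat5* Adipoq libraries lay inside the control range. The log2 fold change of Gk was -0.12 with wide limits of -0.89 and 0.65, and turned to 0.20 without control replicate 3, 0.064 without control replicate 4, 0.11 with limma-voom and 0.18 with 1 surrogate variable. The 5 control libraries had the same order for Gk as for Ucp1, from replicate 5 at the bottom through 2, 1 and 4 to replicate 3.

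Gpam, the mitochondrial enzyme that adds the first acyl chain to glycerol 3-phosphate, measured 683, 583, 1060.4, 813 and 529 CPM in control replicates 1 to 5 and 667, 636, 706, 866 and 842 CPM in *Stat5* Adipoq replicates 1 to 5. The controls again followed the order of Ucp1, and their range enclosed all *Stat5* Adipoq libraries. The log2 fold change of Gpam, 0.02, had limits of -0.35 and 0.38 (adjusted p = 0.98 in edgeR's quasi-likelihood test). It turned to -0.0016 with library size only, to -0.0059, -0.053 and -0.078 without control replicates 1, 2 and 5, and to -0.045 and -0.029 without *Stat5* Adipoq replicates 4 and 5. Agpat3, one of the enzymes that add the second chain, measured 725, 721, 839, 739 and 663 CPM in control replicates 1 to 5 and 813, 769, 903, 906 and 898 CPM in *Stat5* Adipoq replicates 1 to 5. Control replicate 3 lay among the *Stat5* Adipoq libraries and the other controls below them. Its log2 fold change was 0.22 (SE 0.07, adjusted p = 0.15 in edgeR's quasi-likelihood test), and without control replicate 3 it was 0.27 with an adjusted p of 0.043. Agpat2, the most abundant of these 5 genes per kb, ranged from 2417 to 3286 CPM in control and from 2174 to 2997 CPM in *Stat5* Adipoq BAT. Agpat1, Agpat2, Agpat4 and Agpat5 had log2 fold changes between -0.15 and 0.00, and none passed. Agpat1 ranged from 156 to 193 CPM in control and from 144 to 177 CPM in *Stat5* Adipoq BAT. Agpat4 ranged from 1.82 to 3.20 CPM in control and from 2.12 to 2.64 CPM in *Stat5* Adipoq BAT, and Agpat5 ranged from 18.4 to 25.0 CPM in control and from 19.5 to 23.0 CPM in *Stat5* Adipoq BAT. For Agpat4 the log2 fold change of -0.08 turned to 0.037 without control replicate 5. That of Agpat5, 0.0049, turned to -0.014 with library size only, to -0.019, -0.014 and -0.038 without control replicates 1, 4 and 5, and to -0.027 and -0.0026 without *Stat5* Adipoq replicates 1 and 2.

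The last acylation, from diglyceride to triglyceride, is carried out by DGAT1 and DGAT2. Dgat1 measured 389, 335, 374, 318 and 281 CPM in control replicates 1 to 5 and 270.0, 293, 291, 301 and 323 CPM in *Stat5* Adipoq replicates 1 to 5. Control replicates 4 and 5 overlapped the *Stat5* Adipoq libraries, and the log2 fold change of -0.20 (SE 0.09) had an adjusted p of 0.30 in edgeR's quasi-likelihood test. Dgat2, at 888 ± 106 against 180 ± 23.0 CPM per kb for Dgat1 in control (SD, n = 5 each), measured 2363, 2103, 1777, 1801 and 1994 CPM in control replicates 1 to 5 and 2504, 2079, 2172, 2077 and 2173 CPM in *Stat5* Adipoq replicates 1 to 5. *Stat5* Adipoq replicate 1 was the highest and the other 4 *Stat5* Adipoq libraries lay within the control range. Its log2 fold change was 0.13 with limits of -0.05 and 0.32 (adjusted p = 0.51 in edgeR's quasi-likelihood test).

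Phosphatidate phosphatases, or lipins, release the diglyceride. Lpin1, the most abundant lipin gene per kb in control BAT, ranged from 755 to 1027 CPM in control and from 754 to 1035 CPM in *Stat5* Adipoq BAT. The 3 lipin genes had log2 fold changes of 0.07 (Lpin1), 0.06 (Lpin2) and 0.16 (Lpin3), and none passed. Lpin2 ranged from 17.2 to 22.6 CPM in control and from 17.1 to 22.4 CPM in *Stat5* Adipoq BAT, and Lpin3 ranged from 7.58 to 9.35 CPM in control and from 8.39 to 11.2 CPM in *Stat5* Adipoq BAT. Bscl2 encodes seipin, which shapes the droplet at the endoplasmic reticulum, and measured 288, 295, 307, 279 and 254 CPM in control replicates 1 to 5 and 244, 221, 243, 271 and 271 CPM in *Stat5* Adipoq replicates 1 to 5. The *Stat5* Adipoq values were lower on the whole, with 3 of the 5 below all controls. The log2 fold change was -0.19 (SE 0.07, adjusted p = 0.22 in edgeR's quasi-likelihood test), and opposite-strand exons cover 6.75% of the exon bases of Bscl2. Fitm2, which acts in droplet budding, had a log2 fold change of 0.0048, its limits lying at -0.14 and 0.15, and ranged from 113 to 139 CPM in control and from 117 to 132 CPM in *Stat5* Adipoq BAT. The sign of its difference turned with library size only (-0.017), without control replicates 2 (-0.013) and 5 (-0.022), and without *Stat5* Adipoq replicates 4 (-0.024) and 5 (-0.011). Antisense exons also cover 18.9% of the exon bases of Agpat5, 13.0% of those of Gpd1, 7.44% of those of Gpd2 and 5.72% of those of Fitm2, while the members for which no such share is given here had at most the 4.24% of Mlxipl. Across the 16 genes of esterification the limits lay within 0.5 of 0 for 15, the exception being Gk. For 12 other tested genes of esterification, such as Gpat3, Gpat4 and Mogat1, and 12 of acyl-CoA handling, such as Acsl1 and Dbi, none passed edgeR's test or DESeq2's. An unadjusted p under 0.05 was found for 1 and 2 of them, against 15.2% of all genes. Log2 fold changes lay between -2.56 and 0.13 in the esterification list and between -0.67 and 0.54 in the acyl-CoA list.

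The 36 genes lie on 15 chromosomes, with 7 on chromosome 19. Fads3, Fads2 and Fads1 lie there in this order at chr19:10040855-10060113, chr19:10062765-10101503 and chr19:10182877-10196874 of GRCm38, separated by 2.7 kb and 81.4 kb, and all 3 had log2 fold changes below 0. Acacb lies at chr5:114146321-114250761, and Elovl5 (chr9:77917365-77984519) and Me1 (chr9:86581363-86695914) lie 8596.8 kb apart on chromosome 9. RefSeq promoter windows of GRCm38.p6, from 250 bases before to 50 bases after a transcript start, were found for 29 of the 36 genes, with 42 windows in all. The letters TTCNNNGAA, the STAT5 consensus, occurred on either strand in 1 of the 42 windows, that of Agpat1, and in 8.30% of the 32851 windows of all genes. The sterol response element TCACNCCAC was in 1 of the 42, a window of Mlxipl, and in 1.24% of all windows. The E-box CACGTG was in 6 of the 42 and in 7.15% of all. These matches describe the sequence alone, and STAT5 binding was not measured. The paper looked for the STAT5 consensus over a much longer stretch upstream of its genes of interest, so sites beyond these windows were not examined here. The windows of the genes that fell are printed to show what these stretches hold, 5′ to 3′ on the strand of the gene, with the E-box of Elovl5, 161 bases before its start, in capitals. They are chr5:114165268-114165567 (plus strand) for Acacb, at a start inside the gene as given above, chr9:77917115-77917414 (plus strand) for Elovl5, and chr9:86695865-86696164 and chr9:86687228-86687527 (minus strand) for the outer and inner start of Me1. Fads1 was not in the table.
Acacb: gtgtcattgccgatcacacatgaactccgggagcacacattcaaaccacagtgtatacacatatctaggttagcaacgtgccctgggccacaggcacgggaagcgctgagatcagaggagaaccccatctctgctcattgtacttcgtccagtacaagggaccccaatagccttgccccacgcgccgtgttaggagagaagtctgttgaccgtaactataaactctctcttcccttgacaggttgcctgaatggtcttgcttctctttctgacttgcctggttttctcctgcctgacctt
Elovl5: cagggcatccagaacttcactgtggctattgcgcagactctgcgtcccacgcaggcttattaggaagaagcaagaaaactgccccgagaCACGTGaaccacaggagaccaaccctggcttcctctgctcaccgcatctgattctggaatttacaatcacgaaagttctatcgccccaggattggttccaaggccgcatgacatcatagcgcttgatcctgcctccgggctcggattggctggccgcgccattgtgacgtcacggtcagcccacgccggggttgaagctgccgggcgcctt
Me1 outer start: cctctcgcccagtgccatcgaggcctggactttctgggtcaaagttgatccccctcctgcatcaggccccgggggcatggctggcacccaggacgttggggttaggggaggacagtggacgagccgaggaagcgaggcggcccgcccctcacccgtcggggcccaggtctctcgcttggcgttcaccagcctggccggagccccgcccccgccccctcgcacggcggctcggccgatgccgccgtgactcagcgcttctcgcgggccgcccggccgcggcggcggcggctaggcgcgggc
Me1 inner start: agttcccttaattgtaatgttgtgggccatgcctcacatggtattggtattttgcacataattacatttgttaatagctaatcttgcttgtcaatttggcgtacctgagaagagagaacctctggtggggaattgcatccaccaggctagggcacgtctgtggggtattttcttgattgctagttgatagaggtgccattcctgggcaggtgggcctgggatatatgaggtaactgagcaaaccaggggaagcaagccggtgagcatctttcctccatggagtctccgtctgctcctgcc

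Markers of other cells were read beside the 4 genes that fell. The white adipocyte list, with 4 of 7 genes tested and Tcf21, Hoxc9 and Hoxc10 too low to test, summed to 145, 111, 111, 109 and 126 CPM in control replicates 1 to 5 and 115, 59.7, 74.6, 51.7 and 37.3 CPM in *Stat5* Adipoq replicates 1 to 5. Its most abundant gene, Retn, fell with a log2 fold change of -1.53 (SE 0.31, adjusted p = 0.023 in edgeR's quasi-likelihood test), where 1.31% of all genes were called lower. The other 3 tested genes did not pass that test, with log2 fold changes of -1.24 for Hoxc8 (unadjusted p = 0.0036 in the same test), -0.17 for Nnat and 0.62 for Lep. DESeq2's Wald test called 2 of the 4 tested genes lower, where it called 2.46% of all genes lower. Retn lost its call without control replicate 1 (adjusted p = 0.056) or 4 (0.0502) or without *Stat5* Adipoq replicate 2 (0.056), 3 (0.057) or 4 (0.070) in edgeR's quasi-likelihood test. *Stat5* Adipoq replicate 1 lay within the control range of this list and the other *Stat5* Adipoq libraries below it. The 6 Schwann cell genes, led by Mbp, summed to 135, 332, 207, 526 and 198 CPM in control replicates 1 to 5 and 230.2, 150.1, 122, 140.4 and 136 CPM in *Stat5* Adipoq replicates 1 to 5. For 5 of the 6 the unadjusted p was under 0.05, all lower, where 15.2% of all genes had one in either direction. None of the 6 passed edgeR's test, while DESeq2 called 1, where it called 2.46% of all genes lower. The 8 muscle genes were all lower at an unadjusted p under 0.05, against 15.2% of all genes in either direction, with control replicate 3 far above the rest. None of the 8 passed edgeR's test, while DESeq2 called 3, against 2.46% of all genes called lower. All 9 tested liver genes had log2 fold changes below 0, from -3.49 (Alb) to -1.19 (Apoa2). Of the 9, 3 had an unadjusted p under 0.05, against 15.2% of all genes. The 1 that passed, where 1.31% of all genes were called lower, was Cyp2e1, which is also expressed in adipose tissue (log2 fold change -1.67, adjusted p = 0.037 in edgeR's quasi-likelihood test). Cyp2e1 kept its call only without control replicate 5 or *Stat5* Adipoq replicate 1, and lost it without control replicate 1 (adjusted p = 0.061), 2 (0.061), 3 (0.052) or 4 (0.085) or without *Stat5* Adipoq replicate 2 (0.087), 3 (0.11), 4 (0.10) or 5 (0.10) in the same test, and also with 1 surrogate variable in the fit (0.072). The list summed to 105, 98.6, 280, 190.2 and 60.8 CPM in control replicates 1 to 5 and 84.8, 30.8, 32.6, 33.7 and 31.2 CPM in *Stat5* Adipoq replicates 1 to 5. Most of each sum was Cyp2e1, at 102, 96.5, 180, 188 and 58.8 CPM in control replicates 1 to 5. In *Stat5* Adipoq replicates 1 to 5 Cyp2e1 measured 82.0, 23.7, 30.0, 32.3 and 29.6 CPM. The other liver genes added most in control replicate 3. Sums for macrophages (149 ± 18.1 and 140 ± 15.1 CPM), endothelium (900 ± 62.7 and 969 ± 73.2 CPM) and fibroblasts (912 ± 229 and 803 ± 238 CPM), led by Lyz2, Kdr and Col1a2, overlapped between control and *Stat5* Adipoq BAT (SD, n = 5 each). Log2 fold changes were below 0 for 7 of 8 macrophage and 6 of 7 fibroblast genes, and above 0 for all 7 endothelial genes. None of these genes passed edgeR's test, and 1 endothelial gene had an unadjusted p under 0.05, against 15.2% of all genes. B cell and T cell genes were near the floor in both genotypes, at 3.71 ± 0.897 and 4.16 ± 0.520 CPM and at 3.79 ± 1.40 and 2.18 ± 1.15 CPM (SD, n = 5 each). The part of white adipocytes or Schwann cells in the lower Acacb, Me1, Fads1 and Elovl5 was not tested. Without control replicate 3, the library with the highest sums of the muscle and liver lists, all 4 were still called.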

How the data were processed

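RNA-Seq counts per gene of 10 BAT libraries, 1 per mouse, were analysed. Single reads of 50 bases were mapped by the authors to GRCm38 (STAR 2.5.0b) and counted with featureCounts 1.5.0-p1, and the deposited values are raw counts per gene. The libraries were made with a stranded kit, but the strand setting of the counting is not given in the sources used here, so reads of genes that overlap on opposite strands may have been joined. The authors' table of the comparison holds DESeq2 fold changes and p-values, which were not used; its gene symbols were. Samples were grouped by their labels, and 0 columns were left unmapped.

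A gene was tested if its counts, scaled with the size factors of DESeq2, summed to more than 45 over the 10 libraries. Genotypes were compared in R 4.3.3 with edgeR 4.0.16 (TMM, quasi-likelihood F test, no covariate, 5 libraries per genotype, Benjamini-Hochberg adjustment over all 13568 genes, threshold 0.05). Standard errors and 95% limits follow from the F statistic. Exact two-sided permutation tests used log2 CPM. The procedure was tested on simulated data. Levels of different genes were compared as CPM per kb of the longest GENCODE transcript, and shared sequence as the percentage of its 50-base words found in transcripts of other genes. Promoter windows are from RefSeq for GRCm38.p6. At 8488129 to 19514904 counts per library, genes with few counts, such as Elovl7, have wide limits. The libraries come from separate mice, and no pair of libraries had counts within sampling noise of each other (chi-square test over genes).

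Each library's value is given for the genes of the 36 that passed the threshold or had an unadjusted p under 0.05 and for Fasn, Srebf1, Mlxipl, Scd1, Gpam and Dgat2, and the others are given by ranges. Of the pathway lists, the genes that passed are named with values. Any further gene was named with its values known, as was Gk with each library's value. The 36 genes and the lists of pathways and of markers were chosen with earlier results of these data known. Alternatives were DESeq2 1.42.0, limma-voom (limma 3.58.1), DESeq2 size factors, library size only, TMM without Scd1, no filter, filterByExpr, a replicate block, 1 surrogate variable from sva 3.50.0, merged exon length, and leaving out each library, for which the filter was scaled to the 9 libraries left.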

Additional observations from a re-analysis of the deposited data

Results flagged for a closer look

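Among 94 groups of 5 libraries examined (each of the 36 genes, each pathway or marker gene that passed, Stat5a, Stat5b, the total counts and the summed share of the 36 genes, in both genotypes), 7 held a library far from the other 4 in its group, where chance gives about 1 in 20 groups, or 4.7. Control replicate 3 had 2513 CPM of Gpd2, while the remaining controls had 2002 to 2071 CPM. The same library had 1625 CPM of Mdh1, against 1261 to 1303 CPM. Control replicate 4 had 1.36 CPM of Elovl7, against 0.191 to 0.481 CPM, which are a few counts each. It was also sequenced to 19514904 counts, against 8488129 to 10936218. *Stat5* Adipoq replicate 1 had 2504 CPM of Dgat2, against 2077 to 2173 CPM in the other *Stat5* Adipoq libraries. It also had 20.7 CPM of Stat5a, against 15.8 to 16.6 CPM, and 82.0 CPM of Cyp2e1, against 23.7 to 32.3 CPM. No cause of these values was tested.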

How the results depend on the processing

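Acacb, Me1 and Elovl5 passed under each of the 9 other settings, Fads1 under 8 of 9, and Fads2 under DESeq2 alone. The number of genes called was 660 with DESeq2's Wald test, against 368 by edgeR, and 185 to 442 with 1 library left out. The cause was not tested. Of the 36 genes, 2 to 6 were called with 1 library left out and 3 to 5 under the other settings. Differences close to 0 changed sign. With library size only, the log2 fold change was -0.014 for Agpat5, -0.017 for Fitm2 and -0.0016 for Gpam. With 1 surrogate variable it was 0.012 for Fasn and 0.18 for Gk, and Gk gave 0.11 with limma-voom and 0.086 with the replicate block. With 1 library left out, it ranged from -0.065 to 0.071 for Fasn, -0.34 to 0.20 for Gk, -0.078 to 0.19 for Gpam, -0.16 to 0.037 for Agpat4, -0.038 to 0.072 for Agpat5 and -0.024 to 0.051 for Fitm2; the cause was not tested. The labels number the replicates alike in both genotypes, but same-numbered libraries did not deviate together (correlations over genes of -0.23, 0.074, -0.076, 0.084 and -0.16), and only control replicate 4 correlated best with its own number, so the numbers do not pair the samples. The replicate block called 273 genes and 3 of the 36, with an adjusted p of 0.082 for Fads1, and of 0.11 for Mdh1 of the precursor list, in edgeR's test. The median log2 fold change over all genes lay between -0.0244 and 0.00075 in all fits. Elovl7 was not tested by filterByExpr or without control replicate 4, and DESeq2 gave it no adjusted p. With merged exon length the Scd1 level was 2.58 times that of Fasn per kb in control BAT, against 2.40. Limits: genes with few counts, such as Elovl7, Fads2 and Elovl4, rest on little depth. Cell composition and strand of counting could not be resolved from these counts.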
